A study of Mus musculus with 2 samples.

Results

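The 10 genes described here encode the enzymes that make phosphatidylcholine, phosphatidylethanolamine and phosphatidylserine: Chka, Chkb, Pcyt1a, Pcyt2, Cept1, Pemt, Etnk1, Ptdss1, Ptdss2 and Pisd. They were chosen by name, with earlier results of these data known, and all 10 were found among the 54532 gene identifiers of the count table. Gene expression was measured by bulk RNA-seq in primary CD8+ T cells from the spleens of WT mice, which the labels call ND mice without explaining the term. One culture was kept for 8 h in RPMI 1640 and the other for 8 h in RPMI 1640 lacking methionine, the amino acid from which cells make the methyl donor S-adenosylmethionine. There was 1 library per medium, so the differences have no replicates behind them and p-values are not given. The labels do not say how many mice were used, how the cells were isolated, whether they were stimulated, or which of the 2 kits named, for whole RNA or for mRNA, made which library.

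Phosphatidylcholine and phosphatidylethanolamine are the main phospholipids of animal membranes. In most cells both are made by the parallel branches of the Kennedy pathway: a kinase phosphorylates choline or ethanolamine, a cytidylyl transferase activates the product with CTP, and a phosphotransferase joins it to diacylglycerol. Phosphatidylserine is made by exchanging the head group of an existing phospholipid, and its decarboxylation in mitochondria gives phosphatidylethanolamine. The methyltransferase encoded by Pemt, best known from the liver, turns phosphatidylethanolamine into phosphatidylcholine and spends S-adenosylmethionine at each methylation.

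The complete-medium library held 14646527 counts and the methionine-free library 19647681. Levels are counts per 1000000 (CPM) after TMM scaling, and a fold is the ratio of scaled counts between the libraries. The 95% interval after a fold or level reflects the error of counting reads and leaves out variation among cultures or mice. The T cell and CD8 genes Cd3e, Cd8a and Cd8b1 were present in both libraries, at 146, 664 and 398 CPM in complete medium and at 154, 527 and 358 in the other library, while Cd4 had 9 and 11 counts. All 4 B cell markers had counts, summing to 9.67 CPM in complete medium and 6.18 in the other library; of 6 myeloid markers, summing to 5.65 and 6.79 CPM, Csf1r was at 0 in the methionine-free library. The 3 NK cell markers summed to 2.11 and 1.99 CPM, with Klrb1c at 0 in both libraries and 2 of the 3 at 0 without methionine. The 5 erythroid markers summed to 1.5 and 2.04 CPM, with 2 of them at 0 in each library. The 3 platelet markers summed to 2.04 and 1.74 CPM, with 2 of them at 0 in each library. Of 3 hepatocyte markers, Apoa1 and Ttr were at 0 and Alb had 5 and 6 counts. The 10 markers of dividing cells were all at least 1.5-fold lower without methionine, their sum going from 3502 to 946 CPM. The part of cell division or of these other cells in the differences below was not tested. In bulk RNA, fewer cells of a type and less RNA per cell cannot be told apart.

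The largest difference among the 10 genes was a lower level of Pcyt2, the cytidylyl transferase gene of the ethanolamine branch, in the methionine-free library. Pcyt1a, the cytidylyl transferase gene of the choline branch, was also lower. Cept1, whose enzyme carries out the last step of both branches, and Chka, the first enzyme of the choline branch, were higher. By a limit of 1.5-fold, 2 of the 10 genes were higher and 2 were lower, whereas 15.7% of the 13041 genes that averaged 10 counts or more were higher and 18% were lower. With no minimum count these shares were 23.2% and 29.9%, and with a mean of 100 counts or more 12.2% and 13.7%. The shares among the 10 genes lie near this background, so the counts alone do not set these genes apart. At 2-fold, 1 was lower and 0 were higher, against 9.29% and 5.8% of all genes. The median log2 difference of the 10 genes was -0.13 and that of all genes 0.04. In 4 of the 10, Chkb, Pemt, Ptdss1 and Ptdss2, the interval held a ratio of 1. The same was true of 4336 of the 13041 genes. An interval without 1 is therefore common here and does not set a gene apart.

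The sequence just upstream of the start site is shown for the cytidylyl transferase gene of the choline branch, which was lower without methionine, and for the choline kinase gene of the same branch, which was higher. Both were taken from RefSeq (GRCm38.p6, 5′ to 3′, plus strand), Pcyt1a at chr16:32430671-32430920 and Chka at chr19:3851523-3851772. Capitals mark a match to TCACNCCAC, a form of the sterol regulatory element that SREBP transcription factors bind.
Pcyt1a: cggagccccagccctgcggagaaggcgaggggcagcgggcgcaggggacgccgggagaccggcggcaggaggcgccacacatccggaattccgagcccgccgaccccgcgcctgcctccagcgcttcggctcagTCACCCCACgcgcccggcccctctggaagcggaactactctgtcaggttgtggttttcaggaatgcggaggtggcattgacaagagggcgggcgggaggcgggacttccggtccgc
Chka: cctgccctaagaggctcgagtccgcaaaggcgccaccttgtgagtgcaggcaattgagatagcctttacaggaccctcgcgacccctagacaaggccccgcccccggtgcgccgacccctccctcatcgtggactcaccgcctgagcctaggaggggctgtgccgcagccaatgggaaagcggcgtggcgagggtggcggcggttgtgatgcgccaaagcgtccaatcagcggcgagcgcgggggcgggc
The match in Pcyt1a read TCACCCCAC and lay 116 to 108 bases before the start site, at chr16:32430805-32430813. Searched on both strands over the 250 bases before the start site and none after it, these letters occurred at 346 of 32851 start sites of all genes, or 1.05%. Of the 10 genes, 8 matched the RefSeq table, with 14 start sites; Pcyt2 and Ptdss1 did not. Pcyt1a was the 1 gene of the 8 with a match, the same 9 letters falling in the windows of 2 of its start sites. TGATGNAA, the core of the amino acid response element that ATF4 binds, occurred at 3.45% of all start sites and the E-box CACGTG at 6.02%, and neither was found in the windows of these 8 genes. A match is a description of the letters and shows no binding.

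**Figure D1:**
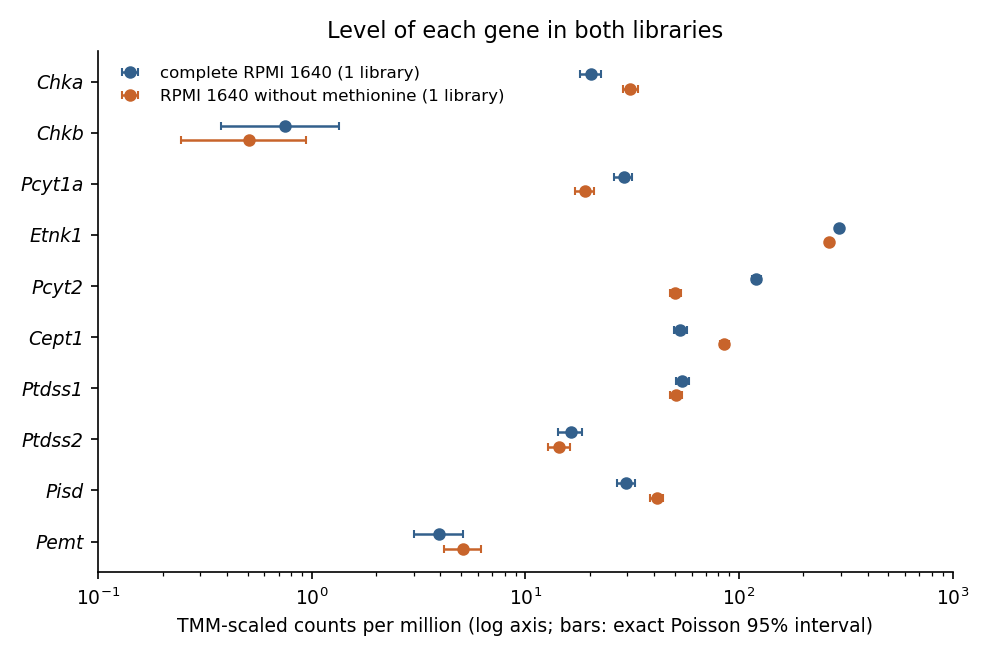
TMM-scaled CPM (log axis) of the 10 genes in the complete-medium library (blue) and the methionine-free library (orange), 1 library each, with exact Poisson 95% intervals. Pcyt2 lay at 121 and 50.4 CPM, with intervals far apart, and Chkb lay below 1 CPM in both.

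The kinases open both branches. Chka, which encodes choline kinase alpha, had 297 counts in complete medium against 606, or 20.2 CPM (18 to 22.7) and 30.9 CPM (28.5 to 33.5). It was 1.53-fold higher without methionine (1.33 to 1.76), an interval that reaches below 1.5-fold. Etnk1, which encodes the main ethanolamine kinase of these cells by count, had 4310 and 5147 counts, or 293 and 263 CPM. It was 1.12-fold lower (1.07 to 1.16), a difference outside counting error but smaller than 1.5-fold.

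Chkb, which encodes choline kinase beta, had 11 and 10 counts, and its interval ran from 3.85-fold lower to 1.77-fold higher, so no difference could be detected at this depth. Its low count needs care. Chkb (chr15:89426360-89429908, minus strand, GRCm38) shares 1552 of its 3061 exonic bases with Gm44502, an annotated gene on the same strand that runs across Chkb into its neighbour and had 0 counts in both libraries. Of 128 such protein-coding identifiers, those with a Gm symbol and at least 90% of their exonic bases shared with 2 or more other genes on the same strand, 85.2% had 0 counts in both libraries. The sources used here do not say whether reads in shared exons were counted for either gene, so the level of Chkb is uncertain. Etnk2, the other ethanolamine kinase gene, had 1 and 2 counts, under the floor of 3 counts at which a level is read.

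Chka and Chkb together were set against Etnk1 within each library, a ratio of counts that does not depend on scaling. It went from 0.0715 to 0.120, 1.68-fold higher without methionine (1.45 to 1.94). Of all counts of the 4 kinase genes, Chka held 6.43% (5.74 to 7.18, exact Clopper-Pearson) in complete medium and 10.5% (9.73 to 11.3) without methionine. Shares of counts, here and below, are not corrected for gene length. The ratio of Chka to Chkb, 27.0 and 60.6, had an interval on its change of 0.854 to 5.96 that held 1.

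The cytidylyl transferases catalyse the step that is usually slowest in each branch. Pcyt2, which activates phosphoethanolamine (ENSMUSG00000025137, chr11:120610087-120617936, minus strand), had 1773 counts in complete medium against 988. Its level went from 121 CPM (115 to 127) to 50.4 CPM (47.3 to 53.7), 2.39-fold lower (2.21 to 2.59). This was the 1 gene of the 10 whose whole interval lay beyond 1.5-fold, and 6.49% of all genes measured had a lower log2 difference. Of the 13041 genes, 1268 had an interval wholly beyond 1.5-fold lower and 834 wholly beyond 1.5-fold higher. No exon of another annotated gene overlapped its exons.

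Pcyt1a, which activates phosphocholine (ENSMUSG00000005615, chr16:32430921-32475070, plus strand), had 423 and 371 counts. Its level went from 28.8 CPM (26.1 to 31.7) to 18.9 CPM (17.1 to 21), 1.52-fold lower (1.32 to 1.75). Its interval excluded 1 but not 1.5-fold, and 17.3% of all genes had a lower log2 difference. Pcyt1b, the gene of the other phosphocholine cytidylyl transferase, had 1 count in each library.

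Both cytidylyl transferase genes were lower, and Pcyt2 more so. The count ratio of Pcyt1a to Pcyt2 went from 0.239 to 0.376, 1.57-fold higher without methionine (1.34 to 1.85). Pcyt1a made up 19.3% (17.6 to 21) of the counts of the 3 cytidylyl transferase genes in complete medium and 27.3% (24.9 to 29.7) without methionine.

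**Figure D2:**
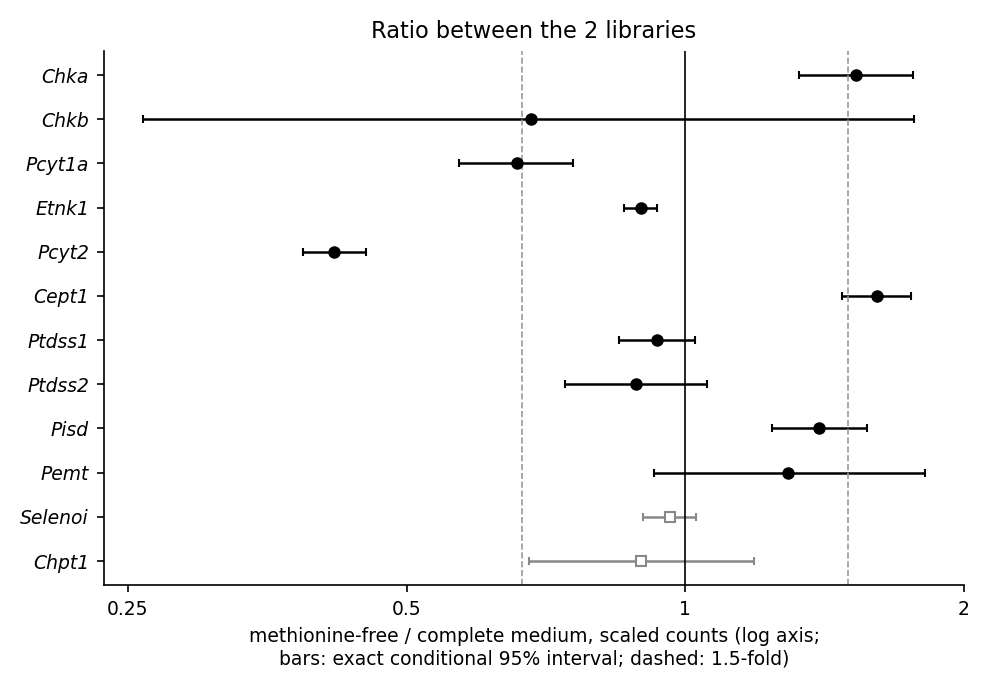
Ratio of scaled counts, methionine-free over complete medium (log axis), for the 10 genes (filled circles) and for 2 other phosphotransferase genes (open squares), with exact conditional 95% intervals. The interval of Pcyt2 alone lies wholly beyond the dashed 1.5-fold lines, and those of Chkb, Pemt, Ptdss1, Ptdss2, Selenoi and Chpt1 cross 1. Of all 13041 genes, 1268 lie wholly beyond the lower line and 834 beyond the upper.

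Cept1 encodes the phosphotransferase of the endoplasmic reticulum that accepts both CDP-choline and CDP-ethanolamine (ENSMUSG00000040774, chr3:106502260-106547802, minus strand). It had 780 and 1676 counts, or 53.1 CPM (49.5 to 57.0) against 85.5 CPM (81.5 to 89.7) without methionine. It was 1.61-fold higher (1.48 to 1.76), the largest difference upward among the 10 genes. Of the exonic bases of Cept1, 24.7% also lie in exons of Dennd2d on the opposite strand, which had 3491 and 5964 counts and was 1.28-fold higher (1.23 to 1.34). The sources used here do not say whether strand was used in counting, so reads of the 2 genes may not be fully told apart.

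The genes of the phosphotransferases with 1 substrate each lay near a ratio of 1. Selenoi, the ethanolamine phosphotransferase gene, had 1608 and 2065 counts and was 1.04-fold lower (0.973 to 1.11). Chpt1, the choline phosphotransferase gene, had 97 and 116 counts and was 1.12-fold lower (0.843 to 1.47). Both intervals held 1. Of the counts of these 3 genes, Cept1 held 31.4% (29.6 to 33.3) in complete medium and 43.5% (41.9 to 45.0) without methionine, while Selenoi held 64.7% (62.8 to 66.6) and 53.5% (51.9 to 55.1).

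Phosphatidylserine synthase genes stayed close to a ratio of 1. Ptdss1, whose enzyme exchanges the choline of phosphatidylcholine for serine, had 796 and 991 counts, 54.2 and 50.6 CPM, and was 1.07-fold lower (0.975 to 1.18). Ptdss2, whose enzyme uses phosphatidylethanolamine, had 239 and 282 counts, 16.3 and 14.4 CPM, and was 1.13-fold lower (0.948 to 1.35). Their count ratio was 3.33 in complete medium and 3.51 without methionine, a change of 1.06-fold (0.863 to 1.29). The intervals hold 1 but do not show equal levels. Ptdss1 shares 229 of its 4294 exonic bases with Mterf3 on the opposite strand, which was 1.28-fold higher (1.14 to 1.44).

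Pisd, which encodes the mitochondrial phosphatidylserine decarboxylase, had 434 and 808 counts. Its level went from 29.6 CPM (26.8 to 32.5) to 41.2 CPM (38.4 to 44.2), 1.40-fold higher (1.24 to 1.57), outside counting error and below 1.5-fold. Against the summed counts of Ptdss1 and Ptdss2, Pisd went from 0.419 to 0.635, 1.51-fold higher without methionine (1.31 to 1.75). Other annotated features could touch this value. The annotated pseudogenes Pisd-ps1, with 116 and 203 counts, and Pisd-ps2, with 5 and 9, may share reads with Pisd. Of the exonic bases of Pisd, 20.1% lie in Gm20671 on the same strand, which had 0 counts in both libraries.

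Pemt, the gene of the methyl-consuming route, had few counts. There were 58 counts in complete medium against 100, or 3.95 CPM (3.0 to 5.11) and 5.10 CPM (4.15 to 6.21). The library without methionine was 1.29-fold higher, but the interval ran from 0.926 to 1.82 and held 1. At this depth a difference in Pemt was therefore not detectable. Relative to Pcyt1a, the other route to phosphatidylcholine, Pemt went from 0.137 to 0.270 in counts, a ratio 1.97-fold higher without methionine (1.36 to 2.85), beside a Pcyt1a that was itself 1.52-fold lower.

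**Figure D3:**
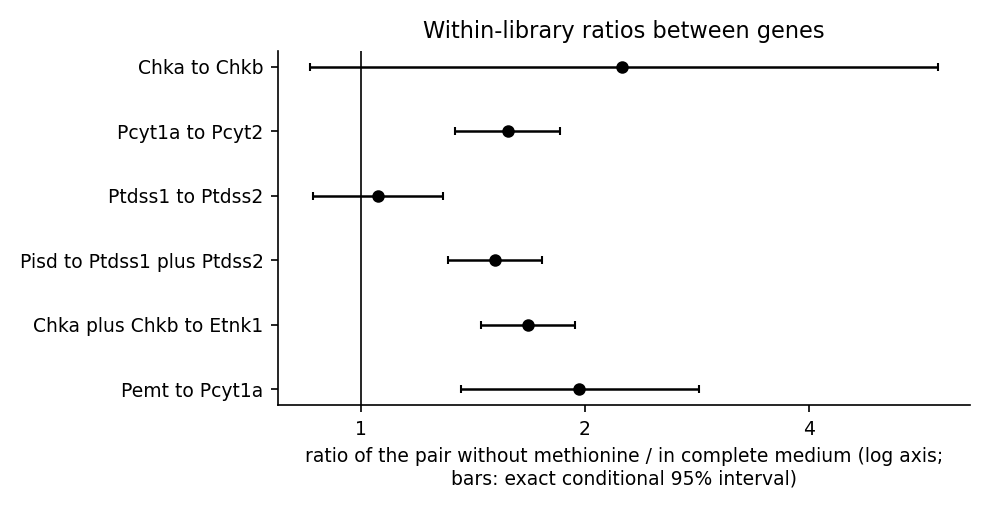
Change of 6 count ratios between genes within a library, shown as the ratio without methionine over that in complete medium (log axis) with exact conditional 95% intervals. The intervals of Chka to Chkb and Ptdss1 to Ptdss2 cross 1, and the other 4 lie above it, between 1.31 and 2.85.

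Levels of different genes were compared per kilobase of merged exon and 1000000 scaled counts. In complete medium Pcyt2 stood highest at 27.8 (26.5 to 29.1), followed by Etnk1 at 20.7, Cept1 at 17.0, Ptdss1 at 12.6, Pisd at 5.14, Pcyt1a at 3.89 and Ptdss2 at 2.89. Pemt at 1.88 and Chka at 1.68 came next and could not be told apart by their intervals, and Chkb was lowest at 0.245. Without methionine Cept1 stood highest at 27.5 (26.2 to 28.8), with Etnk1 at 18.6. Ptdss1 at 11.8 and Pcyt2 at 11.6 could not be told apart, and Pisd followed at 7.17. Chka, Ptdss2, Pcyt1a and Pemt lay between 2.43 and 2.57 with overlapping intervals, and Chkb was at 0.167. These levels depend on the length used. With the longest annotated transcript in place of merged exons they came out 1.11 to 2.58 times as high, more than 1.5 times for 7 of the 10 genes, and Pcyt2 stood at 64.2 in complete medium and 26.8 without methionine. In complete medium the first 7 places were the same by either length, and Chka then lay above Pemt. Without methionine the longest transcript gave the order Etnk1 at 40.0, Cept1 at 30.4, Pcyt2 at 26.8 and Ptdss1 at 14.8, and put Pemt above Ptdss2 and Pcyt1a. By either length Pcyt2 was first in complete medium and was not first without methionine. Selenoi lay at 8.34 and 8.02 on the merged-exon scale, and Chpt1 at 0.794 and 0.711.

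**Figure D4:**
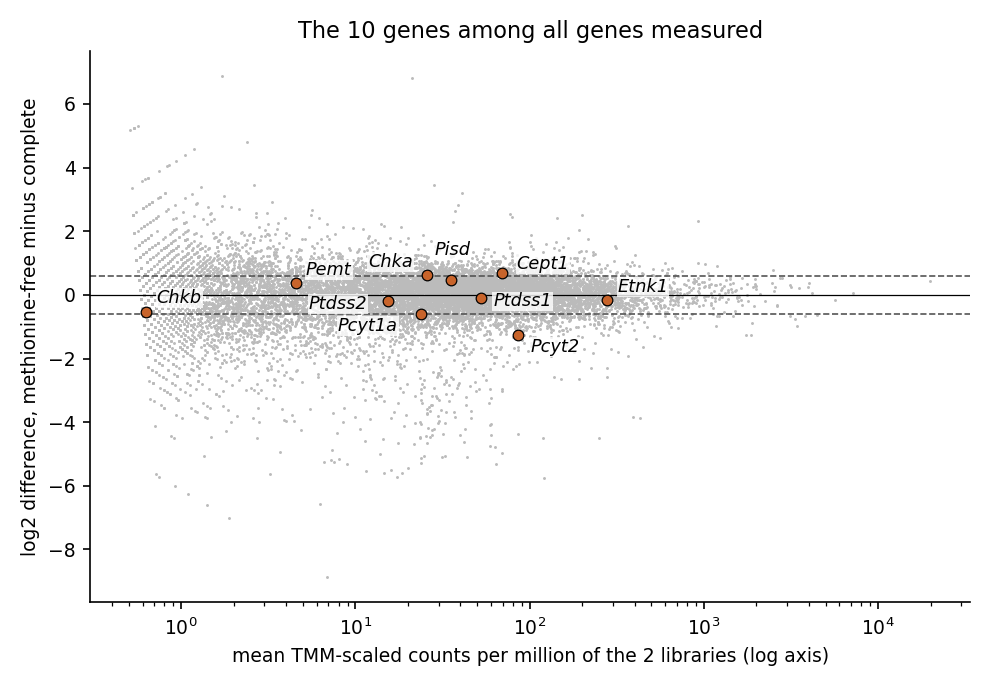
Mean TMM-scaled CPM (log axis) against the log2 difference, methionine-free minus complete medium, for the 13041 genes averaging 10 counts or more (grey) and the 10 genes (orange, labelled); dashed lines mark 1.5-fold. The 10 genes lie between -1.26 and 0.69, within the main cloud.

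Genes of the steps around these enzymes were followed as 9 lists, whose counts at 1.5-fold are to be read beside the 15.7% of all genes that were higher and the 18% that were lower. In lists this short, a count of 0 or 1 says little. Of the choline import genes, 4 of 10 were measured, and 1 passed the limit in each direction. Slc44a2, which encodes a choline transporter-like protein, was 1.52-fold lower (1.45 to 1.6), from 228 to 150 CPM. Slc44a1, the better known choline transporter-like gene, was 1.14-fold higher (0.944 to 1.38), and Slc44a5 rested on 7 and 21 counts with an interval of 0.921 to 6.26.

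The acylation and diacylglycerol genes supply the lipid backbone. Of 12 measured of 16, 0 were higher, 1 was lower, beside 15.7% and 18% of all genes, and the median log2 difference was -0.16. The lower gene was Gpat3, with 23 and 16 counts and an interval that held 1. Lpin1, a phosphatidate phosphatase gene, was 1.44-fold lower (1.29 to 1.62) and Agpat1, an acyltransferase gene, 1.34-fold higher (1.23 to 1.45). In the CDP-diacylglycerol branch, which leads to phosphatidylinositol and cardiolipin, 6 genes of 7 were measured; 0 were higher, 1 was lower and the median was -0.07. Tamm41, the mitochondrial CDP-diacylglycerol synthase gene, was 1.73-fold lower (1.51 to 1.98). Cdipt, the phosphatidylinositol synthase gene, was 1.38-fold higher (1.29 to 1.48), and Crls1, the cardiolipin synthase gene, 1.19-fold lower (1.06 to 1.34).

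Lysophospholipid acyltransferase genes, whose enzymes exchange the fatty acids of finished phospholipids, had the lowest median of the 9 lists. Of 7 measured genes of 8, 4 were at least 1.5-fold lower and 0 higher, beside 18% and 15.7% of all genes. The median log2 difference was -0.99, beside 0.04 for all genes. All 7 lay below 0, as did 6211 of the 13041 genes. Mboat2 was 3.20-fold lower (2.17 to 4.80), from 91 to 38 counts. Mboat1 went from 24.0 to 9.75 CPM, 2.47-fold lower (2.06 to 2.96). Lpcat3, which puts polyunsaturated fatty acids into phosphatidylcholine, went from 57.2 to 27.2 CPM, 2.10-fold lower (1.88 to 2.34). The fourth was Lpcat1, named after its value was seen, at 1.99-fold lower (1.76 to 2.27).

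Of 13 breakdown and recycling genes measured of 16, 0 were higher and 1 was lower, with a median of -0.12. The lower gene was the phospholipase gene Pla2g4b, at 29 and 12 counts (3.22-fold, 1.6 to 6.94). Pld2, a phospholipase D gene, and Pla2g15, a lysosomal phospholipase gene, were 1.25-fold (0.875 to 1.80) and 1.24-fold lower (1.03 to 1.49). Of the genes that link sphingolipids to these head groups, 7 were measured of 9, with 1 higher, 0 lower and a median of -0.17. Sgpl1, whose enzyme cleaves sphingosine phosphate and releases phosphoethanolamine, the substrate of Pcyt2, was 1.63-fold higher (1.49 to 1.78), from 49.9 to 81.3 CPM. Sphk2, a sphingosine kinase gene, was 1.49-fold higher (1.35 to 1.64), and the sphingomyelinase gene Smpd4 1.32-fold lower (1.22 to 1.42).

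In the methyl donor and choline oxidation list, 7 of 14 genes were measured; 2 were higher, 1 was lower and the median was -0.06. Mat2a, which encodes the synthase of the methyl donor that Pemt uses, went from 4576 to 30360 counts, 4.97-fold higher (4.82 to 5.13). Ahcy, whose enzyme clears the product that inhibits methyltransferases, was 1.65-fold lower (1.57 to 1.72). Gnmt, a glycine methyltransferase gene, had 10 and 21 counts and an interval that held 1. Of phosphatidylserine transport and scrambling genes, 12 were measured of 14; 0 were higher and 4 lower, beside 15.7% and 18% of all genes, and the median was -0.16. At 2-fold, 0 of the 12 were lower. Osbpl5, a lipid exchange protein gene, was 1.97-fold lower (1.59 to 2.44), the flippase gene Atp8a1 1.72-fold (1.5 to 1.97) and the scramblase gene Xkr8 1.65-fold (1.12 to 2.45). The fourth was Prelid1, of phosphatidic acid rather than phosphatidylserine transfer into mitochondria and named after its value was seen. It was 1.5-fold lower (1.45 to 1.56), just past the limit. Of the 12, 9 had a log2 difference below 0 and 3 above. Those above, also named after their values were seen, were Osbpl8 at 0.564 (2732 to 5389 counts), Triap1 at 0.505 (348 to 659) and Tmem30a at 0.2. The list of isoenzymes held 6 genes, of which Selenoi and Chpt1 were measured; 0 were higher, 0 were lower and the median was -0.11.

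**Figure D5:**
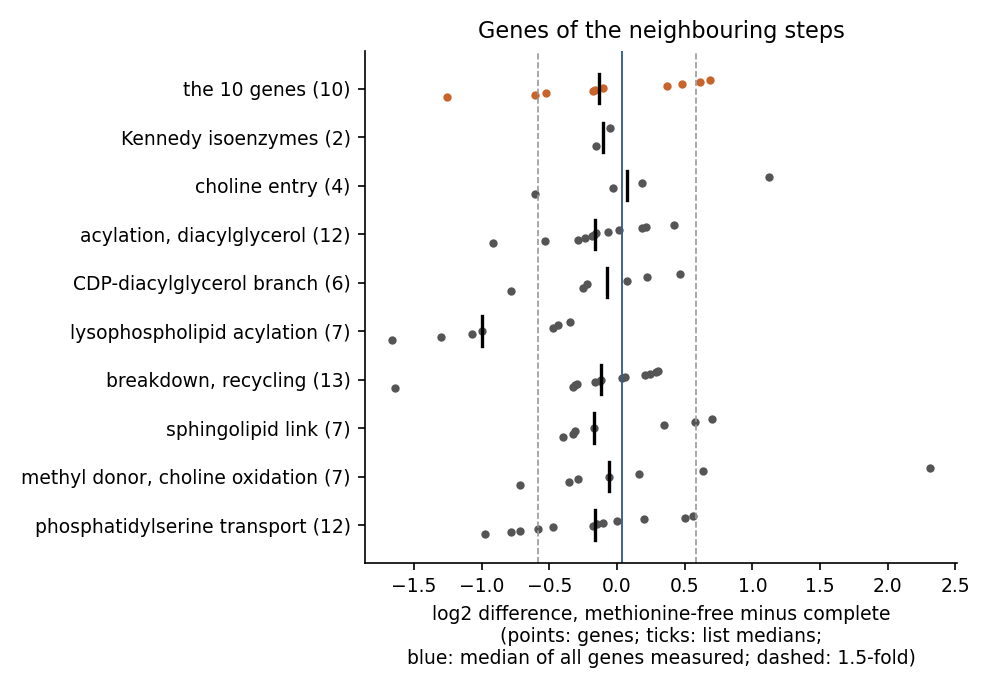
Log2 difference, methionine-free minus complete medium, of the measured genes in each list, with the number of genes in brackets; ticks are list medians, the blue line is the median of all genes (0.04) and dashed lines mark 1.5-fold. The 7 lysophospholipid acyltransferase genes all lie below 0, while the 10 genes spread on both sides of it. Of all 13041 genes, 6211 lie below 0.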

How the data were processed

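Bulk RNA-seq was analysed from 2 libraries, 1 per medium. The authors deposited raw counts per gene as whole numbers with no scaling. The column names carry no sample titles. The column whose name is a misspelt Control was matched to the only sample whose description names Control. The column whose name begins with Met was matched to the only methionine-free sample. Per the submitters' processing notes, the reads were placed on mm10. The sources used here do not give the aligner, counter, annotation release or strand setting. Names, positions and exon lengths came from GENCODE M21 (GRCm38, the assembly of mm10), which matched 54495 of 54532 identifiers.

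Counts were scaled by TMM (edgeR 4.0.16, R 4.3.3) over the whole table. Log2 differences used a prior count of 0.5, and genes averaging 10 counts or more were compared. Folds have exact conditional binomial 95% intervals, levels exact Poisson intervals, and count ratios within a library exact conditional odds ratio intervals (scipy 1.17.1, Python 3.11.15). All cover counting error only, since there was 1 library per medium. No molecular identifiers are named, so copies of the same molecule may have been counted more than once and the intervals may be too narrow. A single read equals 0.0681 CPM in complete medium and 0.0510 in the other library; fewer than 3 counts in both libraries were given no fold. With 1 library per medium, calls rest on size of fold alone, at 1.5-fold. The log2 differences, fold intervals and count ratio intervals were also run on simulated Poisson counts scaled by library totals. That run did not test the TMM scaling, the level intervals or variation among cultures.

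The 10 genes and the lists were chosen with earlier results of these data known. Named in each list were the 3 measured genes with the largest absolute log2 difference. Also named were isoenzymes, overlapping genes and pseudogenes of the 10 genes.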

Additional observations from a re-analysis of the deposited data

How the results depend on the processing

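The log2 differences of the 10 genes kept their direction under library totals, upper quartile scaling and the size factors of DESeq2 1.42.0. They also kept it with a prior count of 2, and moved by less than their counting intervals. No minimum count, or a minimum mean of 100 counts (which leaves out Chkb and Pemt), cannot move a gene's log2 difference. Counts summed with pseudogenes and same-strand overlapping identifiers moved Pisd alone, from 0.48 to 0.462. The overlapping identifiers had 0 counts, so this setting could not test the level of Chkb. The log2 difference of Pcyt2 ran from -1.27 to -1.25, Cept1 from 0.68 to 0.70, Chka from 0.60 to 0.62 and Pcyt1a from -0.61 to -0.59. The counts of 2 higher and 2 lower genes at 1.5-fold were the same under each scaling, prior and minimum. The share of all genes past 1.5-fold moved from 15.7% higher and 18% lower to 23.2% and 29.9% with no minimum count, and to 12.2% and 13.7% with a minimum mean of 100. At 2-fold, 0 of the 10 genes were higher and 1 was lower. At 2-fold 0 genes were lower in the choline import, acylation and diacylglycerol, CDP-diacylglycerol, methyl donor and phosphatidylserine transport lists, 0 were higher in the sphingolipid list and 1 was higher in the methyl donor list. The other 11 list counts stayed within 1.5 times, among them 3 lower lysophospholipid acyltransferase genes. Of all genes, 9.29% were at least 2-fold lower. Depth limits Chkb, Pemt and the genes under 30 counts. Calls of Chka and Pcyt1a sit close to the 1.5-fold limit. No paired analysis was possible because there is 1 library per medium. What the column numbers, 2 and 1, stand for is not known.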
